A study of Mus musculus with 36 samples.

Results

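Malat1 and Neat1 are long noncoding RNAs that stay in the nucleus, and they were followed here in tumour-associated macrophages (TAMs) and CD8+ T cells of MC38 colon carcinoma. They were taken by name from the deposited table, as 2 of its 24781 genes, and both were measured in all 36 libraries. Each library held RNA of 100 cells sorted on day 7 of tumour growth from 1 mouse, and for each cell type there were 6 WT mice, 6 muMt-/- mice and 6 muMt-/- mice implanted with a GABA pellet. The muMt-/- mutation disrupts the membrane form of the IgM heavy chain, so that these mice lack mature B cells. GABA (γ-aminobutyric acid) is a neurotransmitter, here released slowly from a pellet to see its effect in hosts that lack B cells. The labels list no treatment for the WT and muMt-/- groups, whereas the study's methods describe placebo pellets. Pellets were implanted 1 day before the tumour cells. The muMt-/- mice were C57BL/6J and WT mice C57BL/6J or C57BL/6N, so that the WT substrain may differ from that of the mutant, and mice of both sexes were 2 to 5 months old. The substrain, sex and age of each mouse were not used here.

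Malat1 is abundant in most mammalian cells and gathers in nuclear speckles, bodies rich in splicing factors. Neat1 is the scaffold of paraspeckles: its long form holds these bodies together with proteins such as SFPQ and NONO, whereas its short form ends early and is polyadenylated. In macrophages both RNAs are known to respond to inflammatory stimuli, and in T cells their levels change with activation.

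The 2 genes are neighbours. In the mm10 build Malat1 (ENSMUSG00000092341.3) lies at chr19:5795690-5802672 and Neat1 (ENSMUSG00000092274.3) at chr19:5824708-5845478, both on the minus strand and both annotated as long intergenic noncoding RNAs, with 22035 bases between them. The long Malat1 transcript has 1 exon of 6983 bases. The long Neat1 transcript has 1 exon of 20771 bases, and the short one has 3004 bases after splicing. An annotated gene on the opposite strand, Gm37376, lies within Malat1. It was not analysed here, and whether the counting used strand is not given in the sources used here, so that its molecules cannot be told apart from those of Malat1. Short annotated genes on the same strand also lie within Malat1 (Gm27694) and within Neat1 (Gm27533, Gm27505 and Gm28006), and were not analysed here either.

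The A-rich tract of Malat1 and the ends of 2 Neat1 transcripts are shown because the libraries were primed with 14 T bases, and the count of an RNA may depend on where its A-rich stretches lie. The mature long forms are not known to carry an ordinary poly(A) tail: in both, the 3′ end is cut ahead of a tRNA-like RNA and is held in a triple helix between U-rich stretches and an A-rich tract. The Malat1 stretch is followed by 292 more bases of the annotated transcript. The sequences are from GENCODE M21, written 5′ to 3′. Capitals mark the longest stretch that the first 2 share and the A run before the last 6 bases, and in the third they mark AATAAA, the polyadenylation signal.

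Malat1 A-rich tract, chr19:5795982-5796061, minus strand: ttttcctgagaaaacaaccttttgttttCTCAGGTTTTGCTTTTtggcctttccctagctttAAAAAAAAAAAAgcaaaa
Neat1 long transcript end, chr19:5824708-5824787, minus strand: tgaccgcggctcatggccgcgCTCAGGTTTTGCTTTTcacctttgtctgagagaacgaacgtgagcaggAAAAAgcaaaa
Neat1 short transcript end, chr19:5842307-5842386, minus strand: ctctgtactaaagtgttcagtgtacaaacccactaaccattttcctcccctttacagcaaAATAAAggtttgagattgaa

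The shared stretch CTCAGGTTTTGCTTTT has 16 bases and was found in 2 of 141767 annotated transcripts, or 0.00141%. Malat1 holds a run of 12 A, and a run of 10 or more A occurs somewhere in 7.18% of all transcripts. The long Neat1 transcript has no run of 10 or more A, its longest being 7. AATAAA lies in the last 80 bases of the short Neat1 transcript and also of the long Malat1 transcript as annotated, which runs on past the A-rich tract, but not of the long Neat1 transcript. It lies there in 28.0% of the 140371 transcripts of at least that length. Where the counted molecules began on either RNA was not analysed here, so that the Neat1 count cannot be split into its long and short forms.

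The libraries differed in depth. In TAMs the number of molecules was 206394 to 304100 for WT (median 242756), 100254 to 253608 for muMt-/- (median 149960) and 151856 to 262606 for muMt-/- with GABA (median 192775). For CD8+ T cells it was 22896 to 76898 (median 42066), 51064 to 77839 (median 67122) and 65356 to 98015 (median 80283) in the same order. Thus muMt-/- TAM libraries were on the whole the shallowest of the TAM libraries, and WT CD8+ libraries the shallowest of all. Values are given below as the share of all molecules of a library. As these are bulk samples, fewer cells holding an RNA and less RNA per cell cannot be told apart. No pair of libraries held identical counts.

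The labelled cell types were checked against marker genes. All 12 macrophage markers were detected in each TAM group, with a summed share of 0.753% to 1.44% of molecules over the TAM libraries, led by Apoe. T cell markers summed to at most 0.00435% in any TAM library. In CD8+ libraries the 12 T cell markers were all detected and summed to 0.209% to 0.703%, led by Thy1. Macrophage markers were also present in CD8+ libraries. In muMt-/- replicate 1 they summed to 0.356%, above the 0.209% of its T cell markers. Their summed share had a median of 0.0159% in WT mice (0 to 0.0734%), 0.0712% in muMt-/- mice (0.0299% to 0.356%) and 0.103% with GABA (0.0116% to 0.243%), with overlapping ranges. The most abundant was C1qb in WT and muMt-/- mice and Itgam with GABA. In WT CD8+ libraries 10 of 12 were detected, with Adgre1 and Mrc1 at 0. Of 10 macrophage markers tested in CD8+ libraries, edgeR and DESeq2 each called 0 in the 3 comparisons, with 8 at an unadjusted P under 0.05 for muMt-/- against WT (median log2 difference 2.33), 0 for GABA against no GABA (-0.01) and 9 for GABA-treated muMt-/- against WT (2.46). Of all 6663 genes edgeR called 0 in each, with 411, 247 and 459 at an unadjusted P under 0.05. Of the B cell markers, Cd79a, Pax5 and Blk were at 0 in all 36 libraries, WT included, whereas Cd79b was the most abundant in each TAM group and in CD8+ libraries with GABA, and Fcrla in muMt-/- CD8+ libraries. Their summed share reached 0.00206% in muMt-/- and 0.00190% in GABA-treated TAMs against 0.00128% in WT TAMs, and 0.00196% and 0.00435% in the CD8+ libraries of muMt-/- mice without and with GABA against 0 in those of WT mice. The medians were 0.000197% in muMt-/-, 0.00104% in GABA-treated and 0.000470% in WT TAMs, and 0 in each CD8+ group.

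The first question was whether the RNAs differ in TAMs of mice without B cells. In WT TAMs, Malat1 made up 0.302% of molecules in the lowest of the 6 libraries, 0.349% at the median and 0.368% in the highest. In muMt-/- TAMs it made up 0.432%, 0.544% and 0.999%. All 6 muMt-/- libraries therefore lay above all 6 WT libraries, and the WT libraries stood close together whereas 1 muMt-/- library, replicate 4, stood far above the rest. Its share of 0.999% came from 1454 Malat1 molecules of 145593 (95% Clopper-Pearson interval 0.948% to 1.05%). The means were 0.596% ± 0.204 (SD, n = 6) and 0.346% ± 0.0239 (SD, n = 6), a ratio of 1.72. The number of Malat1 molecules per library overlapped, at 664 to 1068 (median 865) in WT and 433 to 1457 (median 940) in muMt-/- TAMs. The higher share thus came with fewer molecules in all in the muMt-/- libraries. Whether the amount of Malat1 per cell differs was not tested.

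Neat1 was counted from 23 to 41 molecules in a WT TAM library and from 26 to 63 in a muMt-/- one. Its share was 0.00998% in the lowest WT library, 0.0134% at the median and 0.0175% in the highest, against 0.0239%, 0.0295% and 0.0405% in muMt-/- TAMs. Again the 2 groups did not overlap, and replicate 4 was the highest for this RNA too, although not set apart from the others. The means were 0.0303% ± 0.00654 (SD, n = 6) and 0.0132% ± 0.00276 (SD, n = 6), a ratio of 2.30.

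**Figure D1:**
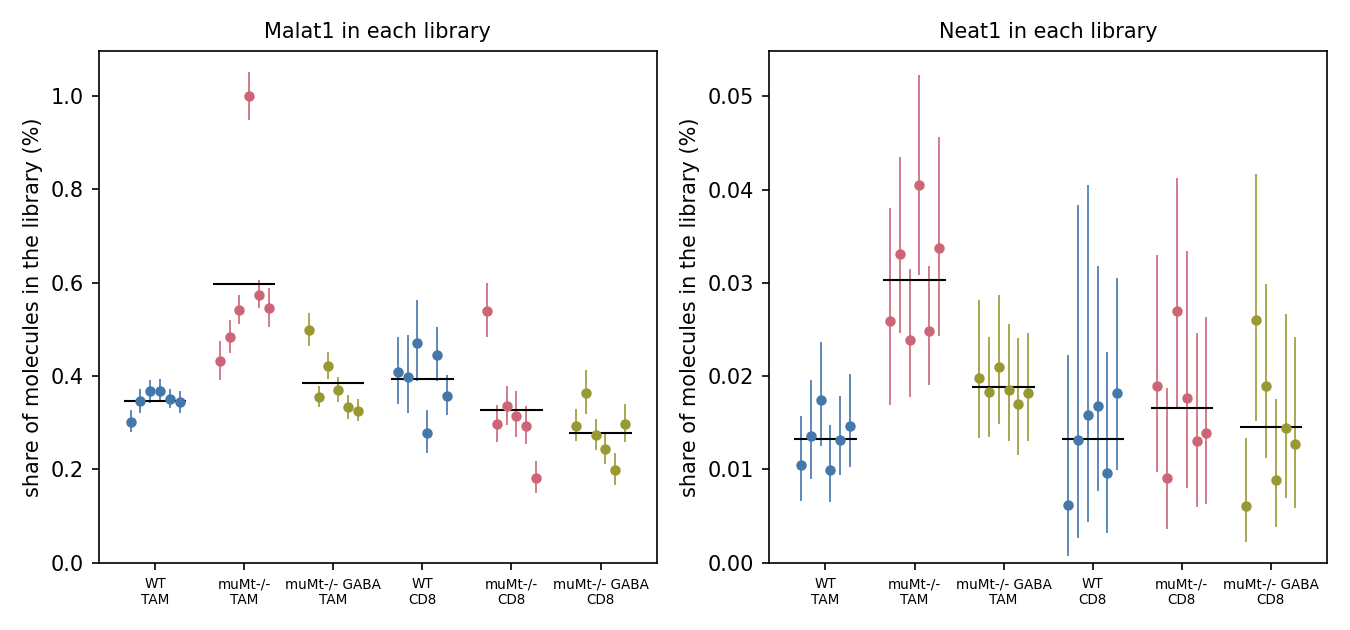
Share of molecules (%) taken by Malat1 (left) and Neat1 (right) in each of the 36 libraries, by group and cell type; points are libraries, vertical bars 95% Clopper-Pearson intervals, which cover counting error only, and black lines group means. In TAMs the muMt-/- libraries lie above the WT libraries for both RNAs, from 0.432% for Malat1 and from 0.0239% for Neat1, whereas the CD8+ groups overlap.

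Both RNAs passed the test across all genes in this comparison. With edgeR's quasi-likelihood test, Malat1 was higher by 0.82 on the log2 scale (SE 0.16, adjusted P = 0.00385, higher in 6 of 6 muMt-/- libraries than in any WT library) and Neat1 by 1.22 (SE 0.18, adjusted P = 8.6e-05, likewise 6 of 6). Neat1 ranked 3 and Malat1 ranked 29 by P among 9469 genes tested, of which 194 were called, 2.05%, with 97 higher and 97 lower. Groups that did not overlap, with muMt-/- higher, were found for 85 genes, 0.898% of those tested. A two-sided exact permutation test of the mean shares gave P = 0.00216 for each RNA, the smallest that 6 against 6 libraries allow, and an adjusted P = 0.0791 over all genes. In this exact test 0 genes (0%) passed after adjustment, and 1532 had an unadjusted P under 0.05.

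Without replicate 4 of muMt-/-, the log2 difference was 0.60 for Malat1 (edgeR adjusted P = 0.0264) and 1.11 for Neat1 (edgeR adjusted P = 0.000583), and the number of genes called went from 194 to 67. With log2 depth as a covariate, Malat1 kept its size, 0.82, but no longer passed (edgeR adjusted P = 0.0988), whereas Neat1 did, at 1.11 (edgeR adjusted P = 0.0149), and 11 genes were called. Over the alternatives of the edgeR and DESeq2 fits the adjusted P ran from 0.000195 to 0.0988 for Malat1 and from 1.4e-07 to 0.0149 for Neat1, and over those of the exact permutation test from 0.0782 to 0.166 and from 0.0782 to 0.134. Neat1 was at the smallest possible P in each of the latter, so that its adjusted value was set by the number of libraries and by the other genes.

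The second question was whether the GABA pellet moves these RNAs in TAMs without B cells. With GABA, Malat1 made up 0.326% of molecules in the lowest library, 0.363% at the median and 0.498% in the highest, with a mean of 0.384% ± 0.0657 (SD, n = 6). Of these libraries 5 of 6 lay below every muMt-/- library without GABA, and replicate 1, the highest, lay within them. Neat1 made up 0.0170%, 0.0184% and 0.0210%, with a mean of 0.0188% ± 0.00139 (SD, n = 6). All 6 of these values lay below all muMt-/- values without GABA, as happened in this direction for 22 of 9469 genes, 0.232%. The GABA-treated libraries, of 30 to 48 Neat1 molecules, stood closer together than counting error alone gives on average, with a spread of 7.39% of the mean against 16.5%, whereas in WT and muMt-/- TAMs it was 20.9% against 17.7% and 21.6% against 15.0%.

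Neither difference passed with edgeR. The log2 difference between muMt-/- TAMs with and without GABA was -0.66 for Malat1 (SE 0.16, edgeR adjusted P = 0.139) and -0.70 for Neat1 (SE 0.17, edgeR adjusted P = 0.132), in a comparison where 2 of 9469 genes, 0.0211%, were called. The exact permutation test gave P = 0.00866 for Malat1 and P = 0.00216 for Neat1, with adjusted P = 0.396 and 0.342, and 0 genes (0%) passed, with 835 at an unadjusted P under 0.05. The call depended on how low genes were filtered and on 1 library. DESeq2's Wald test with its independent filtering of low genes gave adjusted P = 0.00994 for Malat1 and 0.00969 for Neat1 and called 62 genes, and the same DESeq2 test without that filtering gave 0.0795 and 0.0732 and called 7 genes. With edgeR and no filter on low genes Malat1 passed (-0.66, adjusted P = 0.0328) and Neat1 did not (-0.70, adjusted P = 0.0664). Without GABA-treated replicate 1, which had the lowest summed share of macrophage markers of its group (0.753%), edgeR called both RNAs (-0.76, adjusted P = 0.0206 and -0.72, adjusted P = 0.0493). Leaving out muMt-/- replicate 4, the library with the highest Malat1 share, made the differences smaller. The mean share then differed by -0.131 percentage points for Malat1 against -0.212 with all libraries (exact permutation adjusted P = 0.572 and 0.396). For Neat1 it differed by -0.00950 against -0.0115 (exact permutation adjusted P = 0.436 and 0.342). Over the alternatives of the edgeR and DESeq2 fits the adjusted P ran from 0.00994 to 0.424 for Malat1 and from 0.00969 to 0.380 for Neat1, and over those of the exact permutation test from 0.282 to 0.591 and from 0.282 to 0.469.

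Compared with WT TAMs, the GABA-treated muMt-/- TAMs did not pass in either RNA with edgeR. Malat1 was above every WT library in 3 of 6 libraries, with a log2 difference of 0.17 (SE 0.16, edgeR adjusted P = 0.889). Neat1 was above every WT library in 5 of 6, with a log2 difference of 0.52 (SE 0.18, edgeR adjusted P = 0.475). In this comparison 7 genes, 0.0739%, were called. Exact permutation P was 0.242 for Malat1 and 0.00433 for Neat1, adjusted P = 0.821 and 0.446, with 0 genes (0%) past the threshold and 728 at an unadjusted P under 0.05. The TAM comparisons share libraries, so that their values are not independent of each other.

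**Figure D2:**
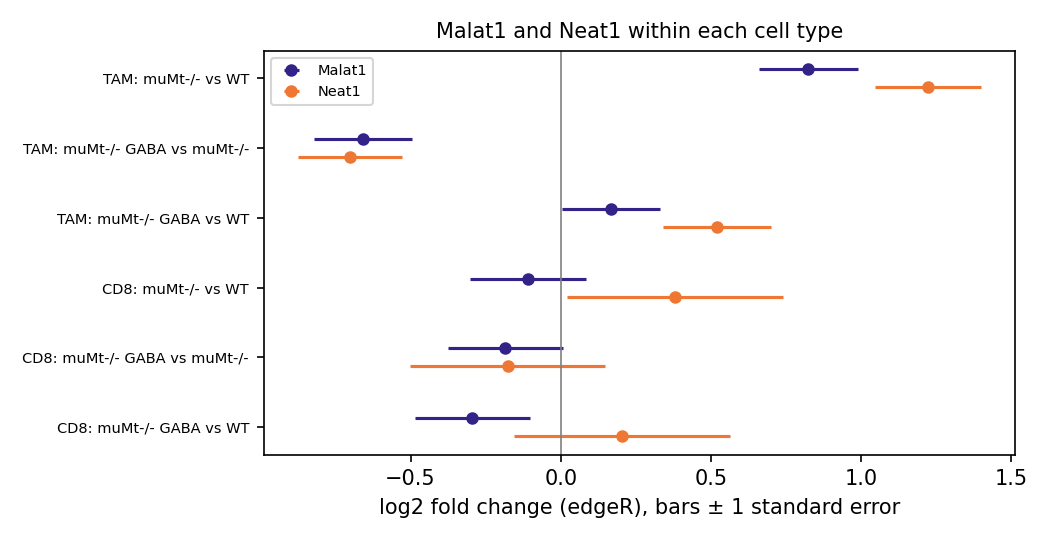
Log2 fold changes of Malat1 and Neat1 from edgeR in the 6 comparisons within a cell type; points are estimates, bars ± 1 standard error, and the vertical line marks no difference. The difference between muMt-/- and WT TAMs is 0.82 for Malat1 and 1.22 for Neat1, and the CD8+ values lie between -0.29 and 0.38.

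The same questions were then asked of CD8+ T cells, where the groups overlapped for both RNAs. Malat1 made up 0.278% to 0.471% of molecules in WT mice (median 0.402%), 0.182% to 0.538% in muMt-/- mice (median 0.306%) and 0.199% to 0.364% with GABA (median 0.283%). WT libraries tended to be high and those with GABA low, 3 of 6 of the latter lying below every WT library, while muMt-/- libraries held both the highest and the lowest value. The highest, muMt-/- replicate 1, had a summed share of 0.356% for macrophage and 0.209% for T cell markers. The lowest, muMt-/- replicate 6, had 0.0693% and 0.616%. Of GABA-treated libraries the lowest, replicate 5, had 0.0116% and 0.703%. The highest of them, replicate 2, had 0.112% and 0.409%, with more macrophage markers in replicate 3 (0.243%). In muMt-/- mice macrophage markers were lowest in replicate 2 (0.0299%). Of WT libraries the highest in Malat1, replicate 3, had 0.0198% for macrophage and 0.518% for T cell markers, and the lowest, replicate 4, had 0 and 0.695%. By group, macrophage markers had the lowest median in WT mice (0.0159%), then muMt-/- mice (0.0712%) and GABA-treated mice (0.103%), whereas Malat1 was highest in WT mice. The part of these markers in the Malat1 share was not tested. The mean shares were 0.393% ± 0.0685, 0.327% ± 0.117 and 0.278% ± 0.0558 (SD, n = 6 each).

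Neat1 was counted from few molecules in CD8+ T cells, 2 to 14 per library in WT mice, 7 to 21 in muMt-/- mice and 6 to 18 with GABA. Its share was 0.00617% to 0.0182% (median 0.0145%), 0.00909% to 0.0270% (median 0.0157%) and 0.00612% to 0.0260% (median 0.0136%). The 3 groups covered much the same range. Counting error alone gave a relative spread of 44.8% of the mean in WT libraries, against an observed 34.7%, and 30.3% against 37.3% in muMt-/- and 30.1% against 49.3% in GABA-treated ones.

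No CD8+ comparison passed for either RNA. For muMt-/- against WT, the log2 difference was -0.11 for Malat1 (SE 0.19, edgeR adjusted P = 0.980) and 0.38 for Neat1 (SE 0.36, edgeR adjusted P = 0.955). For GABA against no GABA in muMt-/- mice it was -0.18 (SE 0.19) and -0.18 (SE 0.33), both with edgeR adjusted P = 0.999. For GABA-treated muMt-/- against WT it was -0.29 for Malat1 (SE 0.19, edgeR adjusted P = 0.793) and 0.20 for Neat1 (SE 0.36, edgeR adjusted P = 0.944). These sizes moved with the scale and the filter: with total molecules they were -0.25 and 0.28 for muMt-/- against WT and -0.49 and 0.05 for GABA-treated muMt-/- against WT, and with edgeR's own filter the latter were -0.51 and 0.03, none passing. With edgeR, 0 of 6663 genes (0%) were called in each of these comparisons, 411, 247 and 459 genes having an unadjusted P under 0.05, and DESeq2 called 0, 0 and 1. The median log2 difference of all genes was 0.15, 0.03 and 0.21 in these comparisons under TMM, and 0.05, -0.02 and 0.05 on the scale of total molecules. The lowest exact permutation P of these was for Malat1 with GABA against WT, 0.0173, adjusted P = 0.683. In the exact tests 0 genes (0%) passed in the 3 comparisons, with 433, 303 and 435 at an unadjusted P under 0.05.

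Set in order by mean share, Malat1 was highest in muMt-/- TAMs at 0.596%, followed by WT CD8+ T cells at 0.393%, GABA-treated TAMs at 0.384%, WT TAMs at 0.346%, muMt-/- CD8+ T cells at 0.327% and GABA-treated CD8+ T cells at 0.278%. Each pair of neighbours in this order overlapped in their libraries. Neat1 was highest in muMt-/- TAMs at 0.0303%, followed by GABA-treated TAMs at 0.0188%, then muMt-/- CD8+ at 0.0166%, GABA-treated CD8+ at 0.0145%, WT CD8+ at 0.0133% and WT TAMs at 0.0132%. Here only the first and second did not overlap.

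The cell types were then compared with each other in 1 fit over all 36 libraries. Which TAM and CD8+ libraries came from the same mouse was not given in the sources used here, and they were treated as independent. In WT mice, TAMs and CD8+ T cells did not differ beyond error in Malat1 (log2 0.20, SE 0.20, edgeR adjusted P = 0.516) or Neat1 (0.26, SE 0.30, edgeR adjusted P = 0.595), and the sign of both turned with the total number of molecules as the scale, where Malat1 was at -0.17 and Neat1 at -0.07. In muMt-/- mice TAMs were higher in both, by 1.09 for Malat1 (SE 0.20, edgeR adjusted P = 1.6e-05, 4 of 6 TAM libraries above every CD8+ library) and 1.08 for Neat1 (SE 0.25, edgeR adjusted P = 0.000600, 3 of 6). With GABA, the difference was 0.61 for Malat1 (SE 0.19, edgeR adjusted P = 0.0170, 3 of 6) and 0.55 for Neat1 (SE 0.25, edgeR adjusted P = 0.113, 0 of 6). The Malat1 call in GABA-treated mice was lost on the scale of total molecules (0.47, edgeR adjusted P = 0.0623), with depth as a covariate (0.60, edgeR adjusted P = 0.176) and without GABA-treated TAM replicates 1, 3 or 4 or GABA-treated CD8+ replicate 5. The background was wide, since 1928, 1810 and 1869 of 8477 genes (22.7%, 21.4% and 22%) were called between the cell types in WT, muMt-/- and GABA-treated mice. The median log2 difference of all genes between the cell types was 0.36 in WT mice under TMM and 0.04 on the scale of total molecules, and 0.10 and -0.13 in muMt-/- mice and 0.12 and -0.02 with GABA. The calls split into 1420 higher and 508 lower in TAMs in WT mice under TMM against 968 and 760 on total molecules, and in muMt-/- mice into 1156 and 654 against 832 and 966.

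Whether the effect of B cell loss differs between TAMs and CD8+ T cells was tested as the difference of the 2 effects. It was 0.89 for Malat1 (SE 0.28, edgeR adjusted P = 0.223) and 0.82 for Neat1 (SE 0.39, edgeR adjusted P = 0.460), with a median over all genes of -0.30 under TMM and -0.21 on total molecules, and 1 of 8477 genes (0.0118%) was called. DESeq2's Wald test with independent filtering gave 1.14 for Malat1 (DESeq2 adjusted P = 0.0199) and called 38 of 8477 genes, and without that filtering DESeq2 gave an adjusted P = 0.172 and called 0 genes. For GABA in muMt-/- mice the difference of effects was -0.48 for Malat1 and -0.53 for Neat1 (edgeR adjusted P = 0.994 for each), with 0 genes called (0%) by edgeR and by DESeq2 and 384 at an unadjusted P under 0.05. For GABA-treated muMt-/- against WT it was 0.40 and 0.29 (edgeR adjusted P = 0.717 and 0.875), with 1 gene called (0.0118%). The effects in TAMs and CD8+ T cells were thus not shown to differ by edgeR.

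The relation of the shares to depth was then read across the 18 TAM libraries, where Neat1 alone passed after adjustment. Pearson's r of the log2 share with the log2 number of molecules was -0.47 for Malat1 (permutation P = 0.0461, adjusted P = 0.0692; Spearman's rho -0.44, permutation P = 0.0716) and -0.66 for Neat1 (permutation P = 0.00263, adjusted P = 0.00789; rho -0.62, permutation P = 0.00684). Within groups, with values centred on the group mean, r was -0.01 for Malat1 (permutation P = 0.983) and -0.26 for Neat1 (permutation P = 0.388), and in WT, muMt-/- and GABA-treated TAMs taken singly it was 0.34, 0.17 and -0.70 for Malat1 and 0.03, -0.40 and -0.35 for Neat1 (n = 6 each). The relations in single groups were not tested. Without the 2 libraries farthest from the median depth, muMt-/- replicates 1 and 6, r was -0.55 and -0.62. For CD8+ libraries r with depth was -0.51 for Malat1 (permutation P = 0.0325, adjusted P = 0.0650; rho -0.55, permutation P = 0.0186) and 0.06 for Neat1 (permutation P = 0.813; rho -0.03, permutation P = 0.907), and within groups -0.22 (permutation P = 0.315) and -0.02 (permutation P = 0.938). Without WT replicates 2 and 3 these were -0.37 and 0.15. These are 6 relations in all, with those between the 2 RNAs.

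**Figure D3:**
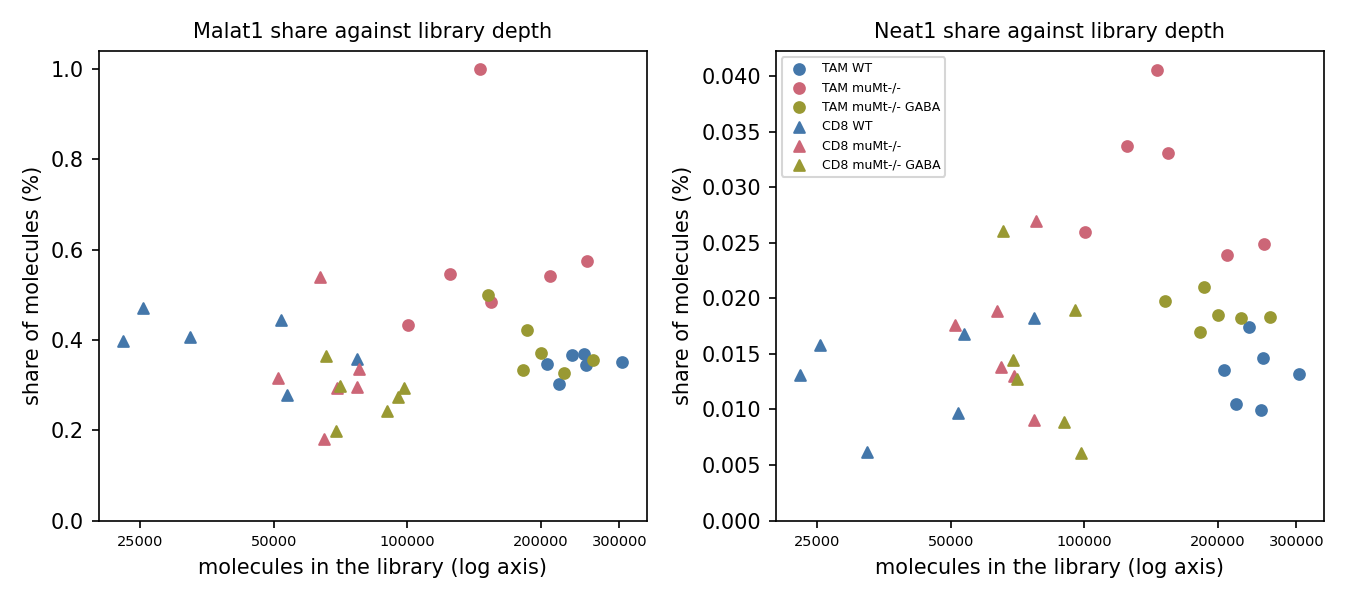
Share of molecules (%) of Malat1 (left) and Neat1 (right) against the number of molecules in each of the 36 libraries, on a log axis; circles are TAMs, triangles CD8+ T cells, and colours the mouse groups. The muMt-/- TAM libraries hold 100254 to 253608 molecules and Neat1 shares of 0.0239% to 0.0405%, and the WT TAM libraries 206394 to 304100 and 0.00998% to 0.0175%.

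The shares of the 2 RNAs were correlated across TAM libraries. Pearson's r of their log2 shares was 0.81 (n = 18, permutation P = 2e-05, adjusted P = 0.00012; Spearman's rho 0.83, permutation P = 0.0001), and 0.78 without muMt-/- replicates 4 and 5. Within groups r was 0.52 (permutation P = 0.0254), with rho 0.40 (permutation P = 0.106). The same r over CD8+ libraries was 0.08 (permutation P = 0.747, adjusted P = 0.813; rho 0.15, permutation P = 0.539), 0.15 within groups (permutation P = 0.556) and 0.01 without muMt-/- replicates 1 and 6. Libraries of a group share their mouse genotype and treatment, and both shares have the same total below them.

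The genes whose pattern was most like that of each RNA were found by Pearson's r of log2 CPM over the 18 libraries of a cell type, as a description of libraries that share groups and depth. In TAMs, among 5310 genes, those nearest to Malat1 were Ahnak, a very large scaffold protein (r = 0.90), the transcriptional repressor Zeb2 (0.86), the RNA-binding protein gene Rbm47 (0.86), the cytoskeletal linker Macf1 (0.86) and the repressor Bach1 (0.85). Neat1 was at rank 10 for Malat1, and Malat1 at rank 6 for Neat1. Nearest to Neat1 were Snora81, a small nucleolar RNA (r = 0.89), Cd274, which encodes PD-L1 (0.85), Mir6240, a locus in ribosomal RNA (0.84), Rbm47 (0.83) and Lnpep, an aminopeptidase (0.83). Within groups, with values centred on the group mean, r was lower for most of them, 0.64 to 0.90 for the 5 nearest to Malat1 and 0.31 to 0.58 for the 5 nearest to Neat1, with Cd274 at 0.39. The log2 difference of Mir6240 was 2.77 between muMt-/- and WT TAMs and -1.18 between muMt-/- TAMs with and without GABA. Whether the ribosomal RNA content of the libraries has a part in the levels of Malat1 and Neat1 was not tested. Among 1883 genes in CD8+ T cells, Malat1 was nearest to 2810474O19Rik (0.84), the histone methyltransferase gene Kmt2c (0.77), the ribosomal RNA precursor Rn45s (0.75), the kinase gene Slk (0.70) and Ier3 (0.69), and Neat1 to the G protein subunit Gnb1 (0.78), S100a6 (0.65), Rab1b (0.64), Etnk1 (0.63) and Ddx27 (0.63), with r within groups of 0.73 to 0.82 and 0.58 to 0.78. There Neat1 was at rank 493 for Malat1.

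Gene lists around these RNAs were then read in TAMs of muMt-/- against WT mice, where the median log2 difference of all 9469 genes was -0.05, 46.3% were higher and 1408 had an unadjusted P under 0.05 with edgeR. Of 29 paraspeckle proteins 28 were tested and 0 passed in either direction, 9 being higher and 19 lower with a median of -0.18, and 5 having an unadjusted P under 0.05. Among the most abundant, Hnrnpk was at -0.19 (SE 0.14), Rbm3, a cold-inducible RNA-binding protein, at -0.61 (SE 0.18, edgeR adjusted P = 0.0562) and Hnrnpf, an RNA-binding protein of splicing, at -0.47 (SE 0.16, edgeR adjusted P = 0.102). Sfpq and Nono, which paraspeckles need, were at 0.01 (SE 0.17) and -0.23 (SE 0.17), and are named for that role, outside the naming rule.

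All 25 nuclear speckle proteins were tested and 0 passed, with 14 higher and 11 lower, a median of 0.01, and 5 at an unadjusted P under 0.05. The splicing factors Srsf2, Sf3b1 and Srrm2 were at 0.06 (SE 0.20), 0.21 (SE 0.16) and 0.37 (SE 0.16, edgeR adjusted P = 0.266). Of 29 genes of RNA end processing and the nuclear exosome, which cut and degrade nuclear RNA, 25 were tested and 0 passed, with 6 higher and 19 lower, a median of -0.26 and 4 at an unadjusted P under 0.05. The exosome subunit gene Exosc2 was at -0.72 (SE 0.22, edgeR adjusted P = 0.0707), Pabpn1, a nuclear poly(A)-binding protein, at 0.00 (edgeR adjusted P = 0.9999) and the RNase P subunit gene Pop4 at -0.31 (SE 0.26). DESeq2 called 2 paraspeckle genes, 1 speckle gene and 0 genes of end processing, beside 282 of all 9469 genes, and without independent filtering it called 1, 0 and 0, beside 192. With edgeR's own filter 1 gene of end processing was called. Leaving out muMt-/- replicate 1 gave 1 paraspeckle gene and 1 speckle gene with edgeR.

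Of 25 other nuclear long noncoding RNAs 9 were tested and 0 passed, with 6 higher and 3 lower, a median of 0.54 and 2 at an unadjusted P under 0.05, and DESeq2 called 0. 2900097C17Rik was at 0.11 (SE 0.18), Kcnq1ot1, an imprinted antisense RNA, at 0.66 (SE 0.30, edgeR adjusted P = 0.282) and Mir22hg at 0.70 (SE 0.28, edgeR adjusted P = 0.221). Of 13 mRNAs kept in the nucleus 10 were tested and 1 passed, against 2.05% of all genes. This was Slc7a2, a cationic amino acid transporter with a nuclear-retained isoform, whose molecules cannot be told apart here from those of the other isoforms. Its normalized number was 3.69 in the lowest WT library, 9.82 at the median and 15.3 in the highest, 13.8, 39.8 and 46.0 in muMt-/- TAMs, and 18.3, 23.8 and 27.4 with GABA. The lowest muMt-/- library thus lay within the WT range. How many of all genes have GABA-treated and WT libraries that do not overlap was not counted. It rose in muMt-/- TAMs by 1.80 (SE 0.26, edgeR adjusted P = 8.6e-05), and in GABA-treated muMt-/- against WT TAMs it passed at 1.31 (SE 0.26, edgeR adjusted P = 0.0386). The latter call was lost with edgeR's own filter and without any of WT replicates 1, 2, 3 and 6 or GABA-treated replicates 2, 3 and 6.

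With GABA against no GABA in muMt-/- TAMs, edgeR and DESeq2 each called 0 genes of these 5 lists, with medians of 0.16, -0.07, 0.29, 0.03 and -0.05 in the order above against 0.06 for all genes, and 1, 3, 3, 0 and 2 genes at an unadjusted P under 0.05, beside 801 of all 9469 genes. Without a filter on low genes edgeR called 1 gene of end processing. In CD8+ T cells 27, 25, 23, 5 and 10 of their genes were tested, and edgeR and DESeq2 each called 0 in the 3 comparisons. At an unadjusted P under 0.05 there were 1, 0, 0, 0 and 0 genes for muMt-/- against WT, 0 in each list for GABA against no GABA, and 0, 3, 0, 0 and 0 for GABA-treated muMt-/- against WT. These stand beside 411, 247 and 459 of all 6663 genes in the 3 comparisons, of which edgeR called 0.

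Genes within 250 kb of either RNA were read as its neighbourhood. Of 50 annotated genes there, 34 were matched by symbol and 24 were tested in TAMs. With edgeR 1 passed, as with DESeq2, in muMt-/- against WT, Fau, which encodes a ribosomal protein fused to a ubiquitin-like one and lies at chr19:6057844-6059524, with a log2 difference of -0.51 (SE 0.14, edgeR adjusted P = 0.0485). Over all genes 2.05% were called in this comparison. Of the 24, 11 were higher and 13 lower, with a median of -0.01. Of 18 tested in CD8+ T cells, edgeR and DESeq2 each called 0, with 1, 0 and 0 at an unadjusted P under 0.05 in the 3 comparisons.

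Macrophage markers differed in the same comparison. In muMt-/- against WT TAMs, 4 of the 12 macrophage markers passed with edgeR and 5 with DESeq2, and 9 of 12 were lower (median -0.23), where edgeR called 2.05% of all genes and DESeq2 called 282 of 9469. With edgeR these were the complement genes C1qb (-0.62, SE 0.17, edgeR adjusted P = 0.0414) and C1qc (-0.57, SE 0.16, edgeR adjusted P = 0.0483) and lysozyme Lyz2 (-0.74, SE 0.19, edgeR adjusted P = 0.0240) lower, and the integrin gene Itgam, one of the sorted surface markers, higher (0.66, SE 0.17, edgeR adjusted P = 0.0277). The summed share of the macrophage markers had a median of 1.31% in WT, 1.02% in muMt-/- and 1.16% in GABA-treated TAMs. Of the muMt-/- libraries 5 of 6, at 0.953% to 1.07%, lay below every WT library, the lowest of which was at 1.13%, and replicate 1, at 1.28%, lay within the WT range. Cdh1, listed with tumour and stroma, was also higher (1.11, SE 0.28, edgeR adjusted P = 0.0287), whereas the other 7 tested of that list were lower and did not pass (median of the 8 -0.33). Of 13 tumour and stroma markers 10, 9 and 9 were detected in WT, muMt-/- and GABA-treated TAMs, led by Col3a1 and with Epcam, Krt18 and Krt19 at 0, with a median summed share of 0.0459% (0.0155% to 0.537%), 0.0544% (0.0161% to 0.211%) and 0.0679% (0.0547% to 0.275%). Of 7 neutrophil markers 4, 4 and 3 were detected, led by Csf3r and with Retnlg, Camp and Ngp at 0, with medians of 0.00305%, 0.00984% and 0.00639%. Of 6 dendritic cell markers 3, 5 and 6 were detected, led by Clec9a, Ccr7 and Clec9a, with medians of 0.000638%, 0.00280% and 0.00206%. NK cell markers summed to at most 0.00266% and B cell markers to at most 0.00206% in any TAM library. The part of these markers in the levels of Malat1 and Neat1 was not tested.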

How the data were processed

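The authors sorted 100 cells per library, tagged each cDNA with a molecular barcode during oligo(dT)-primed reverse transcription, mapped reads with STAR to mm10 and deposited counts of molecules per gene, not normalized. Here, normalized numbers are counts divided by DESeq2 size factors within a cell type, and genes whose mean exceeded 1 were tested with edgeR 4.0.16 (R 4.3.3; TMM, quasi-likelihood, 18 libraries of a cell type, or 36 between cell types), Benjamini-Hochberg adjusted over all genes tested, threshold 0.05. DESeq2 1.42.0, other scalings, filters and covariates were alternatives. Library sizes over tested genes (edgeR) and independent filtering (DESeq2) were settled after values under other settings had been seen; both forms are reported. Shares were compared by exact permutation (924 arrangements) and correlations by 100000 permutations (scipy 1.17.1). Checks of the tests on simulated data are not reported here. Intervals cover counting error only. Named genes were the 2 RNAs, neighbours, the 5 genes most like each, and list members that passed, or else the 3 most abundant. Members and lists were chosen with earlier results of these data known. Spike-in RNAs were not analysed here. 1 listed marker gene is not reported here.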

Additional observations from a re-analysis of the deposited data

Results flagged for a closer look

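The share of Malat1 in muMt-/- TAM replicate 4, 0.999% of molecules, stood apart from the other 5 libraries of its group, which lay between 0.432% and 0.575%. The gap to the nearest library was 0.748 of the range of the group. This was 1 of 12 groups of 6 libraries looked at (2 RNAs in 6 groups), and chance alone sets a library apart by this rule in about 1 of 20 groups. The library was neither the shallowest nor the deepest of its group, with 145593 molecules and 9343 genes detected, and its Neat1 share of 0.0405% was the highest of the group without standing apart. Its macrophage markers summed to 1.03% of molecules, within the 0.953% to 1.28% of the group. The cause was not tested.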

How the results depend on the processing

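The rise of Neat1 in muMt-/- TAMs passed under all 23 alternatives of the edgeR and DESeq2 fits (log2 1.11 to 1.31), and that of Malat1 under 22 of 23, with 0.82 (edgeR adjusted P = 0.0988) when depth was a covariate. For GABA in muMt-/- TAMs, Malat1 passed with DESeq2's Wald test (-0.68) and without a filter (-0.66), and Neat1 with DESeq2 (-0.73); leaving out 1 library gave -0.76 to -0.45 for Malat1 and -0.76 to -0.60 for Neat1, both passing without GABA-treated TAM replicate 1 (edgeR adjusted P = 0.0206 and 0.0493). The difference of effects in Malat1 for muMt-/- against WT passed with DESeq2 (1.14, with 38 of 8477 genes called) but not without independent filtering (adjusted P = 0.172, 0 genes called). Malat1 in TAMs against CD8+ T cells with GABA did not pass with total molecules (0.47) or depth as a covariate (0.60) and was 0.42 to 0.69 without 1 library; Neat1 was 0.39 to 0.77 and passed without GABA-treated CD8+ replicate 2. In WT mice the sign between cell types turned for Malat1 with DESeq2 size factors (-0.0109), total molecules (-0.17), DESeq2 (-0.0112, also without independent filtering) and filterByExpr (-0.12), and for Neat1 with total molecules (-0.0673) and filterByExpr (-0.0200). In CD8+ T cells, leaving out 1 library turned signs of values that did not pass: Malat1 was -0.31 to 0.0215 for muMt-/- against WT and -0.31 to 0.0103 for GABA against muMt-/-, and Neat1 was -0.39 to 0.00293 and, for GABA against WT, -0.00573 to 0.33. Neat1 mean shares differed by -0.00434 to 3.72e-05 percentage points for GABA against muMt-/- and by -0.00106 to 0.00292 for GABA against WT, and on the log2 scale the latter was -0.0267. The cause was not tested.

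Genes called in muMt-/- against WT TAMs numbered 194, against 295 with filterByExpr, 343 without a filter, 323 with the libraries of the comparison only, 11 with depth as a covariate, and 87, 125 and 67 without WT replicates 1 or 6 or muMt-/- replicate 4. For GABA against muMt-/- the 2 calls became up to 62, with DESeq2, and up to 36, without GABA-treated replicate 1; for GABA against WT the 7 became 2, with filterByExpr, to 63, without a filter. In CD8+ T cells the 0 calls became at most 72, 11 and 64, each without a filter, and 13 for muMt-/- against WT without WT replicate 5. Between cell types, 1928, 1810 and 1869 calls became 412, 1002 and 851 with depth as a covariate, and 1166 and 1209 in WT and GABA-treated mice with filterByExpr; the differences of effect went from 1, 0 and 1 to 79, 17 and 67 without a filter. Whether replicate numbers pair the libraries was not settled. In no pair of groups did more than 3 of 6 same-numbered libraries correlate over 0.1, which does not exclude pairing. Same-numbered TAM and CD8+ libraries had a mean correlation of 0.034 in WT, 0.051 in muMt-/- and 0.118 in GABA-treated mice. For libraries of other numbers it was -0.00698, -0.00938 and -0.0206. With the replicate number as a block, Malat1 in muMt-/- against WT TAMs was at 0.79 and Neat1 at 1.22, and no call of either RNA changed. DESeq2 without independent filtering and library sizes over all genes were added after seeing the data. Depth limits the precision of Neat1 in CD8+ T cells, counted from 2 to 21 molecules.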
